A study of Mus musculus with 24 samples.

Results

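The genes described here encode 10 receptors for chemoattractants and chemokines: the formyl peptide receptors Fpr1 and Fpr2, the leukotriene B4 receptor Ltb4r1, the complement anaphylatoxin receptors C5ar1 and C3ar1, the CXC chemokine receptors Cxcr2 and Cxcr4, and the CC and CX3C chemokine receptors Ccr1, Ccr2 and Cx3cr1. They were chosen by name and found in the table of gene counts by Ensembl identifier, and all 10 had a row among 45318 genes. RNA was sequenced from mouse Lys-GFP-ER-HoxA9 cells, myeloid progenitors of the C57Bl/6 strain held immature by a fusion of the oestrogen receptor and HoxA9 and carrying a lysozyme-GFP reporter. The cells were grown with stem cell factor and 0.5 uM estradiol, and 2 libraries were made at each of 0, 4, 8, 12, 24, 36, 48, 72, 96 and 120 h without estradiol. The line was also treated with R07, an agent known here by its code name alone, in 4 libraries, 1 each at 12, 36, 72 and 120 h. The same treatment text stands beside every library, and whether estradiol was present during R07 treatment is not stated separately. All libraries therefore share the fusion protein and the reporter, and the results describe 1 engineered line in culture. Nothing in the labels says that the 2 libraries of a time came from separate cultures, so p-values measure only the spread between these libraries, which may be technical. Where 2 values are given for a time, they are its first and second library, in a fixed order.

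These receptors are membrane proteins that signal through heterotrimeric G proteins, chiefly of the Gi class, and steer the crawling of leukocytes along gradients of their ligands. Formyl peptides come from bacteria and damaged mitochondria, C3a and C5a from cleaved complement, leukotriene B4 from arachidonic acid, and chemokines from many cells of inflamed or resting tissue. In bone marrow, Cxcr4 is known for holding myeloid cells in the marrow and Cxcr2 for releasing neutrophils from it, while Ccr2 is known for releasing monocytes.

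Libraries held between 36623072 and 49599069 counts in genes. The unit of a level is CPM, in which counts are scaled to a common library size after TMM adjustment. Genes are compared with each other in RPKM, which also divides by the exon length. A receptor was called changed at an adjusted p under 0.05 over all genes tested (edgeR quasi-likelihood test, Benjamini-Hochberg). Progenitor markers summed to 5784 and 5723 at 0 h and to 478 and 438 CPM at 120 h, and 9 of 10 were lower at 120 h. Monocyte and macrophage markers summed to 721 and 742 at 0 h and to 13001 and 12856 CPM at 120 h, with all 19 tested higher and Ace without a count in any library. Neutrophil markers summed to 5919 and 5749 at 0 h and to 35956 and 26816 CPM at 120 h, with 16 of 20 higher and 3 lower. The 3 lower genes encode proteases and the peroxidase of primary granules: Mpo was at 3983 and 3721 at 0 h and 62.7 and 94.4 CPM at 120 h, Ctsg at 1586 and 1672 and then 32.4 and 49.3 CPM, and Prtn3 at 276 and 280.0 and then 57.8 and 78.2 CPM. The neutrophil sum at 0 h was thus mostly Mpo and Ctsg, and other genes made up the sum at 120 h. Of all genes tested, 39.6% were higher and 40.3% lower at 120 h than at 0 h. In R07 libraries the progenitor sum was 6201 to 6749 CPM, the neutrophil sum 4886 to 11995 CPM (Mpo alone 3299 to 9501 CPM) and the monocyte and macrophage sum 417 to 1164 CPM. These are bulk samples, in which fewer cells of a type and less RNA per cell cannot be told apart, and the part of these marker sums in the receptor results was not tested.

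Markers of other cell types were also present in part. Eosinophil markers summed to 35.1 and 36.6 at 0 h, 1843 and 2046 at 72 h and 199 and 177 CPM at 120 h, and to 93.4 to 266 CPM with R07; 9 of 10 tested were higher at 120 h, and the eosinophil receptor Ccr3 did not exceed 0.276 CPM in any library. Dendritic cell markers summed to 366 and 319 at 0 h, 1101 and 1082 at 120 h and 498 to 1013 CPM with R07, with 7 of 10 tested higher at 120 h, 1 lower and Zbtb46, Xcr1, Clec9a, Batf3, Siglech and Cd209a under 1 CPM everywhere. The lower one, Flt3, which is also among the progenitor markers, made up 338 and 293 CPM of the sum at 0 h, 10.1 and 5.86 CPM at 120 h and 447 to 952 CPM with R07, so these sums hold different genes. B cell markers summed to 595 and 572 at 0 h, 171 and 167 at 120 h and 391 to 812 CPM with R07, with 8 of 11 tested lower at 120 h and Ms4a1 under 1 CPM everywhere. Mast cell and basophil markers summed to 321 and 355 at 0 h, 996 and 988 at 24 h and 57.5 and 53.4 CPM at 120 h. With R07 their sum was 423 to 1303 CPM. Of 7 tested, 4 were higher and 0 lower at 24 h, and 4 were lower and 2 higher at 120 h. Mcpt4, Tpsb2, Cma1, Fcer1a and Prss34 were under 1 CPM everywhere, and Tpsab1 had no count. Gata2, which is also among the progenitor markers, made up 76.4 and 68.8 CPM of the sum at 0 h. T and NK cell markers stayed between 2.53 and 22.3 CPM in sum, with Cd3e, Cd8a, Ncr1, Gzma and Bcl11b without a count. Erythroid and megakaryocyte markers summed to 15.8 and 15.4 at 0 h, 70.6 and 78.8 at 120 h and 19.8 to 128 CPM with R07, with 3 of 7 tested higher and 3 lower at 120 h. Of all genes tested, 27.9% were called at 24 h in either direction, and at 120 h 39.6% were higher and 40.3% lower. The part of these lists in the receptor results was not tested either.

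The genes lie on 6 chromosomes (mm10, GENCODE M21). Ccr1, Ccr2 and Cx3cr1 lie on chromosome 9, Cxcr2 and Cxcr4 on chromosome 1, and Fpr1 and Fpr2 stand side by side on chromosome 17, where Fpr1 (17876471 to 17883940, minus strand) and Fpr2 (17887824 to 17893952, plus strand) point away from each other across 3883 bp. The other positions are chromosome 7, 16246743 to 16259540 (minus) for C5ar1, chromosome 6, 122847138 to 122856161 (minus) for C3ar1 and chromosome 14, 55765962 to 55768494 (plus) for Ltb4r1. On chromosome 1, Cxcr2 runs from 74153989 to 74161246 (plus) and Cxcr4 from 128588199 to 128592293 (minus). On chromosome 9, Ccr1 runs from 123962124 to 123968692 (minus), Ccr2 from 124101950 to 124113557 (plus) and Cx3cr1 from 119901616 to 120069879 (minus). Fpr2 shares 48 exon bases with Fpr3 on the same strand, and 12.0% of its 101-base stretches also occur in Gm5966, a pseudogene that was not analysed here, so Fpr2 counts are uncertain to that extent. Fpr1, C5ar1, C3ar1, Cxcr2, Cxcr4, Ccr1, Cx3cr1 and Ltb4r1 share no such stretch with another gene. Cx3cr1 overlaps the antisense gene Gm33858 by 78 exon bases, and although the libraries were stranded, the strand setting of the counting is not stated.

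Promoter windows are shown for 4 genes whose courses differed: Fpr1 and Fpr2, neighbours first called at 72 h, the latest of the 10, Ltb4r1, first called at 8 h, and Ccr2, which moved the opposite way. Each window holds 250 bases before and 50 after the RefSeq start (GRCm38.p6), 5′ to 3′ on the gene's strand. Capitals mark matches to TTNNGNAA, a core read by C/EBP factors, and to GAGGAA, a core read by PU.1. Both strands were searched.
Fpr1, chr17:17883890-17884189, minus strand: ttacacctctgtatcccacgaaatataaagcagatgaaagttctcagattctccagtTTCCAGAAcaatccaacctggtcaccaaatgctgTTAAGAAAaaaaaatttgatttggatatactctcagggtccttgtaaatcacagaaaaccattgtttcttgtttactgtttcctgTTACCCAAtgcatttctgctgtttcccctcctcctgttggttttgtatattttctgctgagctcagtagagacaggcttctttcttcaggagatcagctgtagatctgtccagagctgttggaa
Fpr2, chr17:17887574-17887873, plus strand: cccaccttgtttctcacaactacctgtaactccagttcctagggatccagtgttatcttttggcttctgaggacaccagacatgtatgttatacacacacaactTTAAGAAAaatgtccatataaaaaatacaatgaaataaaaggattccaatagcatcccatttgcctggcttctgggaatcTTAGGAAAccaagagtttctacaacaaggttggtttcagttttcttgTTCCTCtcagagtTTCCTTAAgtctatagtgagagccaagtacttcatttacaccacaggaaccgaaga
Ltb4r1, chr14:55765712-55766011, plus strand: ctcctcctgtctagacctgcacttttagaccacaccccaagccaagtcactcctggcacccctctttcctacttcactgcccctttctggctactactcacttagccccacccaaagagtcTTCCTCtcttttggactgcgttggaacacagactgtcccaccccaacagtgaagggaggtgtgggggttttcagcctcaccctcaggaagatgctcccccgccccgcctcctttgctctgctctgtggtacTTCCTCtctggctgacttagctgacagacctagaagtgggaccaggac
Ccr2, chr9:124101933-124102232, plus strand: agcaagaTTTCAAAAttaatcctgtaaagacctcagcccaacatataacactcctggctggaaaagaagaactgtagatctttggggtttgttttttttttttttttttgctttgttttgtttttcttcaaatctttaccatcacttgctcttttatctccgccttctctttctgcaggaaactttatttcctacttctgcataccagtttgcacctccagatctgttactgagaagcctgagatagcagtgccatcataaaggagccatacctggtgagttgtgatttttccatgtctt

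TTNNGNAA occurred in the windows of 6 of the 10 receptors (Fpr1, Fpr2, C5ar1, Cxcr4, Ccr1 and Ccr2) and in 40.7% of all 32851 mouse windows of the same length. Fpr1 and Fpr2 held 3 matches each. GAGGAA occurred in 4 of the 10 (Fpr2, Cxcr2, Ccr1 and Ltb4r1) and in 28.3% of all windows, and in Ccr1 the 2 motifs overlapped. C3ar1 and Cx3cr1 held neither. A match describes the letters and says nothing of binding.

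Over the withdrawal course, all 10 receptors changed at some time, where 91.1% of the 14614 genes tested did so. At 120 h, 9 receptors were higher than at 0 h (39.6% of all genes were) and 1, Ccr2, was lower (40.3% of all genes were); 79.8% of genes were called in either direction. The median change of the receptors at 120 h was 8.78 on the log2 scale, and that of all genes was -0.06. The receptors did not move at once. They were called in 2 of 10 cases at 4 h (11.8% of all genes), 7 at 8 h (21.9%), 7 at 12 h (16.0%), 8 at 24 h (27.9%), 7 at 36 h (40.9%), 8 at 48 h (52.6%), and 10 at 72 h (69.6%) and 96 h (77.4%).

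**Figure D1:**
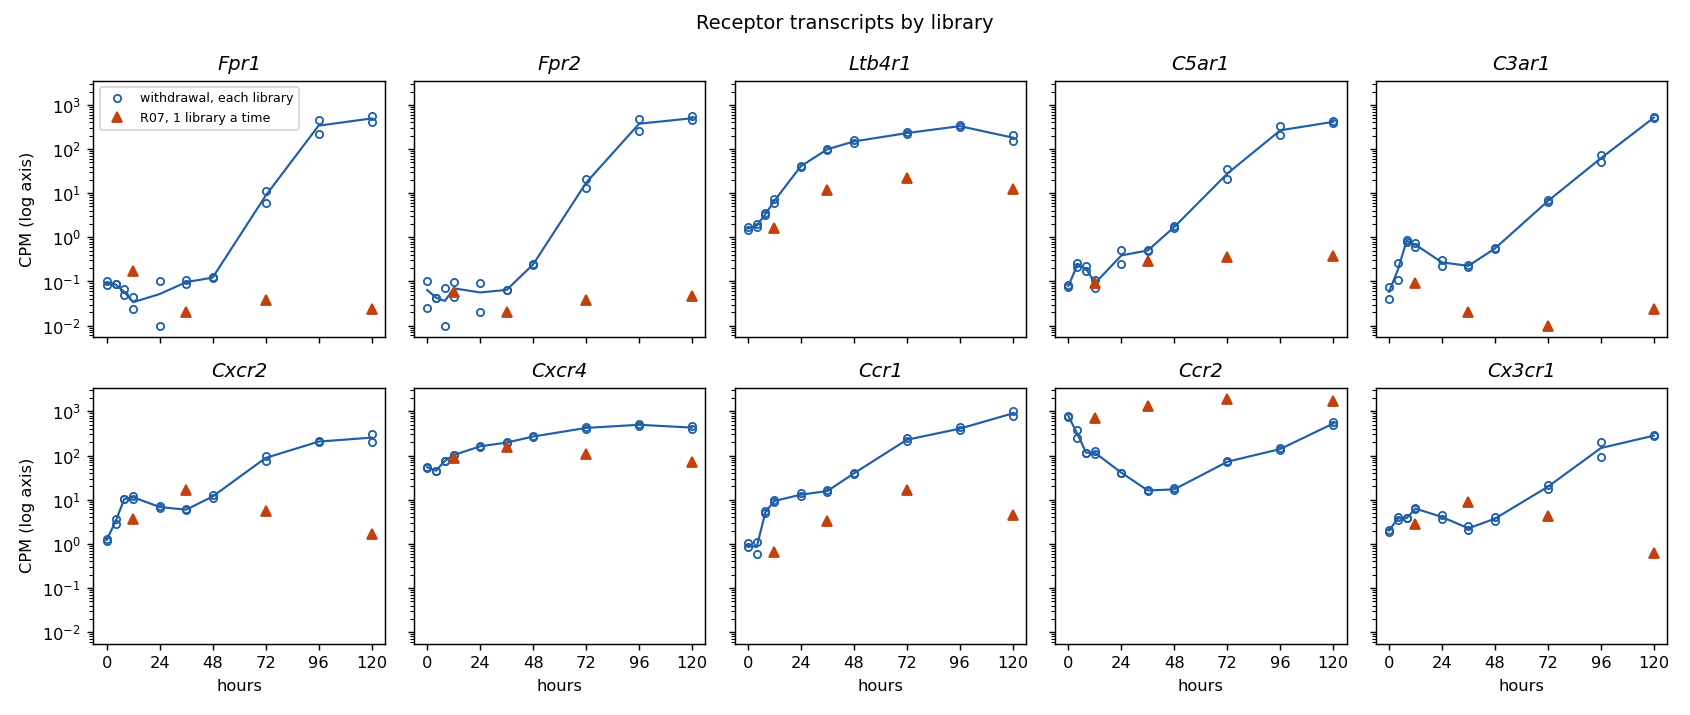
Level of each receptor in every library (CPM, log axis) against hours. Open circles are the 2 withdrawal libraries of each time, lines join their means, triangles are single R07 libraries, and a level of 0 is drawn at 0.01 CPM; 9 receptors end higher than they start without estradiol, and Ccr2 dips at 36 h and is higher with R07.

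Fpr1 binds bacterial formyl peptides with high affinity. It was close to absent for the first 48 h, with 0 to 6 counts in each of 14 libraries, a level of 0 to 0.127 CPM. The library with 0 counts, at 24 h, allows up to 0.069 CPM, the level of 3 counts. Fpr1 then reached 11.4 and 6.12 at 72 h, 456 and 222 at 96 h and 572 and 412 CPM at 120 h. Every library from 72 h on lay above all those up to 48 h. The 2 libraries at 96 h differed from each other more than those at 120 h. The change from 0 h was 6.53 ± 0.57 (SE) at 72 h and 12.35 ± 0.48 at 120 h on the log2 scale (adjusted p = 2.73e-09 and 3.12e-15).

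Fpr2, which binds formyl peptides together with many other peptide and lipid ligands, followed a similar course. Its levels were 0 to 0.102 CPM up to 36 h, 0.254 and 0.235 at 48 h, 21.5 and 13.1 at 72 h, 491 and 257 at 96 h and 549 and 448 CPM at 120 h. All libraries from 72 h on lay above all those up to 48 h. The change at 120 h was 12.76 ± 0.45 (adjusted p = 6.55e-16), and the step from 72 to 96 h was 38.7-fold in mean CPM for Fpr1 and 21.6-fold for Fpr2. At 0 h the fits rest on 4 and 4 counts of Fpr1 and on 1 and 5 of Fpr2, so the levels are better measured than the folds. Per length, Fpr1 was at 0.518 and 0.455 times the level of Fpr2 at 72 h, 0.908 and 0.845 times at 96 h and 1.02 and 0.902 times at 120 h. At 72 h both libraries thus held less Fpr1 than Fpr2, and at 120 h the ratio lay on both sides of 1.

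Ltb4r1 encodes the high-affinity receptor of leukotriene B4. It started at 1.44 and 1.74 CPM and was at 1.98 and 1.69 at 4 h, 3.19 and 3.54 at 8 h, 6.11 and 7.23 at 12 h, and 39.5 and 41.9 CPM at 24 h. It went on to 102 and 94.8 at 36 h, 162 and 134 at 48 h, 243 and 216 at 72 h and 341 and 319 at 96 h, before 207 and 156 CPM at 120 h. Ltb4r1 was the first of the low receptors to pass 10% of its highest mean level, at 24 h in both libraries, and both libraries at 120 h lay below both at 72 and 96 h. The change from 0 h was 1.06 ± 0.20 at 8 h, 4.66 ± 0.17 at 24 h and 6.80 ± 0.18 at 120 h (adjusted p = 0.00055, 3.83e-14 and 1.11e-17). From 48 to 120 h, where the other 9 receptors all rose and 74.8% of genes were called, Ltb4r1 differed by 0.28 ± 0.12 (adjusted p = 0.0507), which did not pass; it passed with RLE scaling (0.38, adjusted p = 0.0107), with DESeq2 (0.38, adjusted p = 0.0121) and without the first library at 48 h (0.41, 0.0194) or the second at 120 h (0.48, 0.00236).

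C5ar1, the receptor through which C5a draws neutrophils and monocytes, was also scarce at the start. Its levels were 0.0759 and 0.0817 at 0 h, 0.258 and 0.214 at 4 h, 0.223 and 0.169 at 8 h, 0.110 and 0.0721 at 12 h, 0.529 and 0.249 at 24 h, 0.503 and 0.507 at 36 h and 1.78 and 1.66 CPM at 48 h. They were 34.6 and 21.0 at 72 h, 325 and 206 at 96 h and 438 and 389 CPM at 120 h. C5ar1 was called from 24 h on, where the formyl peptide receptors were called from 72 h on, and both of its libraries at 48 h exceeded all earlier ones. The change was 2.23 ± 0.79 at 24 h (adjusted p = 0.0418), 4.39 ± 0.57 at 48 h and 12.28 ± 0.37 at 120 h (adjusted p = 1.80e-06 and 6.64e-17). C5ar1 had 3 and 4 counts at 0 h, so here too the levels are better measured than the folds. The call at 24 h was lost when the first or second library at 0 h or the first at 24 h was left out (adjusted p = 0.154, 0.146 and 0.286), and that at 36 h without the second at 0 h (adjusted p = 0.0505).

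C3ar1, the receptor of C3a, rose early and again late. It was at 0.0759 and 0.0408 at 0 h, 0.258 and 0.107 at 4 h and 0.871 and 0.796 at 8 h, then at 0.614 and 0.745 at 12 h, 0.230 and 0.311 at 24 h and 0.240 and 0.211 CPM at 36 h. From 0.550 and 0.568 at 48 h it climbed to 6.86 and 6.40 at 72 h, 73.4 and 50.3 at 96 h and 523 and 504 CPM at 120 h. The early peak at 8 h was small in counts but did not overlap the libraries at 0, 4, 24 or 36 h, and the late rise was steepest at its end, with a mean at 120 h 8.30 times that at 96 h. Against 0 h, C3ar1 rose by 3.80 ± 0.50 at 8 h and 13.06 ± 0.27 at 120 h on the log2 scale (adjusted p = 1.48e-05 and 7.14e-19). C3ar1 had 3 and 2 counts at 0 h, so its levels are better measured than its folds. Its calls at 24 and 36 h (2.21 ± 0.64 and 1.94 ± 0.67) were lost without the second library at 0 h (adjusted p = 0.119 and 0.177), the second at 24 h (0.0986), either at 36 h (0.0967 and 0.0561) and, at 36 h, the first at 0 h (0.0513).

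**Figure D2:**
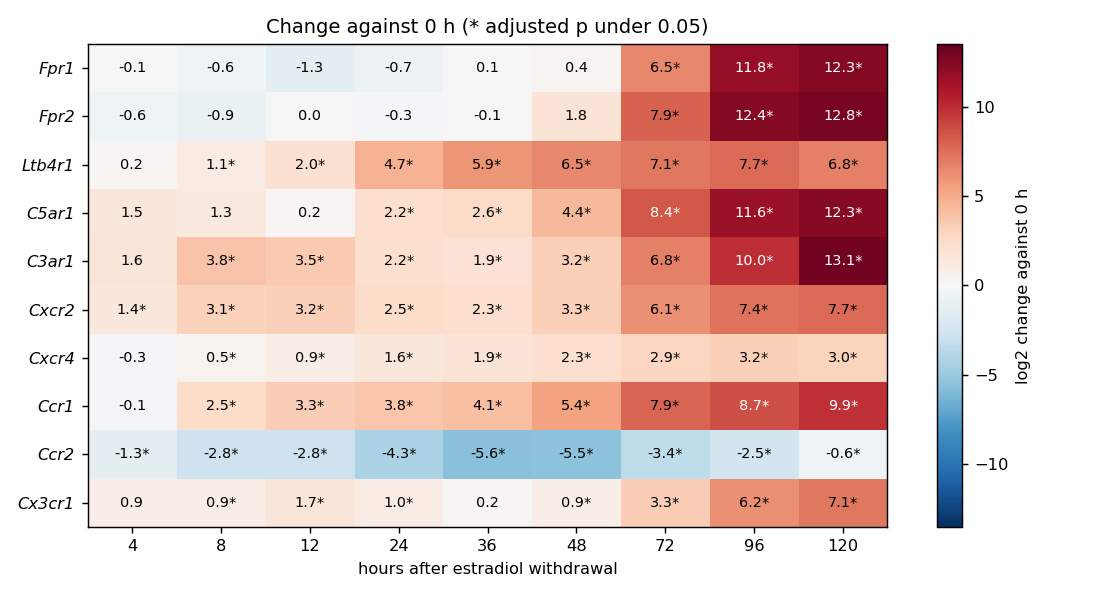
Change of each receptor against 0 h on the log2 scale, at each later time (columns) and for each gene (rows), from the fit over 20 withdrawal libraries; asterisks mark an adjusted p under 0.05. All 10 receptors are called from 72 h on, and Ccr2 is the one receptor called lower at any time.

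Cxcr2, the receptor of ELR-bearing CXC chemokines that draws neutrophils out of the marrow, was the first to be called higher, at 4 h. It was at 1.14 and 1.31 at 0 h, 3.57 and 2.82 at 4 h, 10.3 and 10.6 at 8 h and 12.3 and 10.4 CPM at 12 h. It stood lower at 24 h (7.29 and 6.37 CPM) and 36 h (6.14 and 5.73 CPM), and then reached 12.7 and 11.0 at 48 h, 100.3 and 76.1 at 72 h, 214 and 200.1 at 96 h and 312 and 198 CPM at 120 h. As for C3ar1, a first peak by 12 h was followed by a trough, here without overlap between the libraries at 8 or 12 h and those at 24 or 36 h. The change was 1.37 ± 0.26 at 4 h, 3.07 ± 0.23 at 8 h and 7.67 ± 0.24 at 120 h (adjusted p = 0.00104, 1.45e-08 and 8.98e-17).

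Cxcr4, the receptor of Cxcl12, differed in that it was well expressed throughout. Its levels were 52.9 and 55.5 at 0 h, 45.1 and 45.7 at 4 h, 77.2 and 74.7 at 8 h, 101 and 104 at 12 h and 168 and 156 CPM at 24 h. They went on to 196 and 198 at 36 h, 280.1 and 259.6 at 48 h, 446 and 400.1 at 72 h, 470.2 and 525 at 96 h and 466 and 394 CPM at 120 h. The increase was gradual, with no overlap between successive times from 4 to 72 h, and the libraries at 72 and 120 h overlapped. At 4 h the change was -0.26 ± 0.10 (adjusted p = 0.0926), which did not pass with edgeR and passed with DESeq2 (-0.28, adjusted p = 0.0352), and by 120 h Cxcr4 had risen by 2.97 ± 0.10 (adjusted p = 4.07e-16), the smallest rise among the 9 receptors that rose.

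Ccr1, which binds Ccl3, Ccl5 and related CC chemokines, had the highest CPM of the group in both libraries at 120 h. It stood at 0.834 and 1.02 at 0 h and 1.10 and 0.599 at 4 h, then at 5.45 and 5.09 at 8 h, 9.67 and 9.04 at 12 h, 14.1 and 11.9 at 24 h and 16.3 and 15.1 CPM at 36 h. From 40.9 and 37.7 at 48 h it reached 244 and 211 at 72 h, 433 and 380.3 at 96 h and 1018 and 786 CPM at 120 h. Every step after 4 h was upward without overlap between successive times. The change was 2.48 ± 0.22 at 8 h and 9.89 ± 0.21 at 120 h (adjusted p = 9.33e-08 and 1.15e-18).

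Ccr2, the Ccl2 receptor of monocytes and of some progenitors, went the other way first. It was highest at 0 h, with 757 and 806, and fell to 254 and 377 at 4 h, 117 and 115 at 8 h, 124 and 108 at 12 h, 40.8 and 41.0 at 24 h and 16.7 and 15.6 CPM at 36 h. It then stood at 16.4 and 18.0 at 48 h, 74.1 and 70.7 at 72 h, 137 and 145 at 96 h and 585 and 480.3 CPM at 120 h. The mean at 0 h was 48.4 times that at 36 h, and the return was incomplete at 120 h, where both libraries lay below both at 0 h. On the log2 scale, Ccr2 fell by 1.31 ± 0.14 at 4 h, 5.60 ± 0.17 at 36 h and 0.57 ± 0.13 at 120 h, all against 0 h (adjusted p = 1.43e-06, 8.45e-16 and 0.000624). From 48 to 120 h it rose by 4.94 ± 0.16 (adjusted p = 5.29e-16).

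Cx3cr1, the fractalkine receptor known from patrolling monocytes and tissue macrophages, stayed low for 48 h and rose late. Its levels were 2.10 and 1.88 at 0 h, 4.10 and 3.42 at 4 h, 3.75 and 3.88 at 8 h, 6.14 and 6.46 at 12 h, 4.42 and 3.69 at 24 h, 2.49 and 2.01 at 36 h and 4.15 and 3.29 CPM at 48 h. They reached 21.6 and 17.8 at 72 h, 203 and 92.7 at 96 h and 294 and 272 CPM at 120 h. A low peak at 12 h stood above all libraries up to 48 h, and at 36 h the libraries were back close to those at 0 h (0.17 ± 0.33, adjusted p = 0.716). The change was 1.66 ± 0.29 at 12 h and 7.13 ± 0.30 at 120 h (adjusted p = 0.000386 and 8.06e-15). The calls at 8, 24 and 48 h (0.93 ± 0.31, 1.02 ± 0.31 and 0.90 ± 0.31) were not stable. That at 8 h was lost without either library at 0 h (adjusted p = 0.0806 and 0.213) or at 8 h (0.120 and 0.124), that at 24 h without either at 0 h (0.0575 and 0.0961) or the first at 24 h (0.0989), and that at 48 h without the second at 0 h (0.105) or the first at 48 h (0.124). At 4 h the difference of 0.92 ± 0.31 did not pass (adjusted p = 0.0585), and it passed with DESeq2, with no filter, with the 2 times fitted alone and with a block on the column letter.

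Set against each other per length, the receptors changed places. At 0 h, Ccr2 held 78.0 and 78.1% of the RPKM summed over the 10, and Cxcr4 20.4 and 20.1%. The sum itself was 143.5 and 152.6 RPKM at 0 h, 66.7 and 84.4 RPKM at 4 h and 2168 and 1728 RPKM at 120 h. At 24 h, Cxcr4 led with 68.3 and 66.5%, followed by Ltb4r1 with 20.8 and 23.1%, while Ccr2 held 4.45 and 4.66%. At 48 h, Cxcr4 (52.6 and 55.0%) and Ltb4r1 (39.5 and 36.9%) made up most of the sum. The order of RPKM at 120 h was Fpr2 (424 and 345), Fpr1 (432 and 311), Ccr1 (360 and 277), Cxcr4 (258 and 218), C5ar1 (170.4 and 151), Ltb4r1 (149 and 112), C3ar1 (121 and 117), Cxcr2 (102 and 65.0), Ccr2 (86.6 and 71.1) and Cx3cr1 (65.2 and 60.3). Neighbours in this order whose libraries overlapped were Fpr2 and Fpr1, Fpr1 and Ccr1, Ltb4r1 and C3ar1, and Cxcr2 and Ccr2. The pairs Ccr1 and Cxcr4, Cxcr4 and C5ar1, C5ar1 and Ltb4r1, C3ar1 and Cxcr2, and Ccr2 and Cx3cr1 did not overlap.

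**Figure D3:**
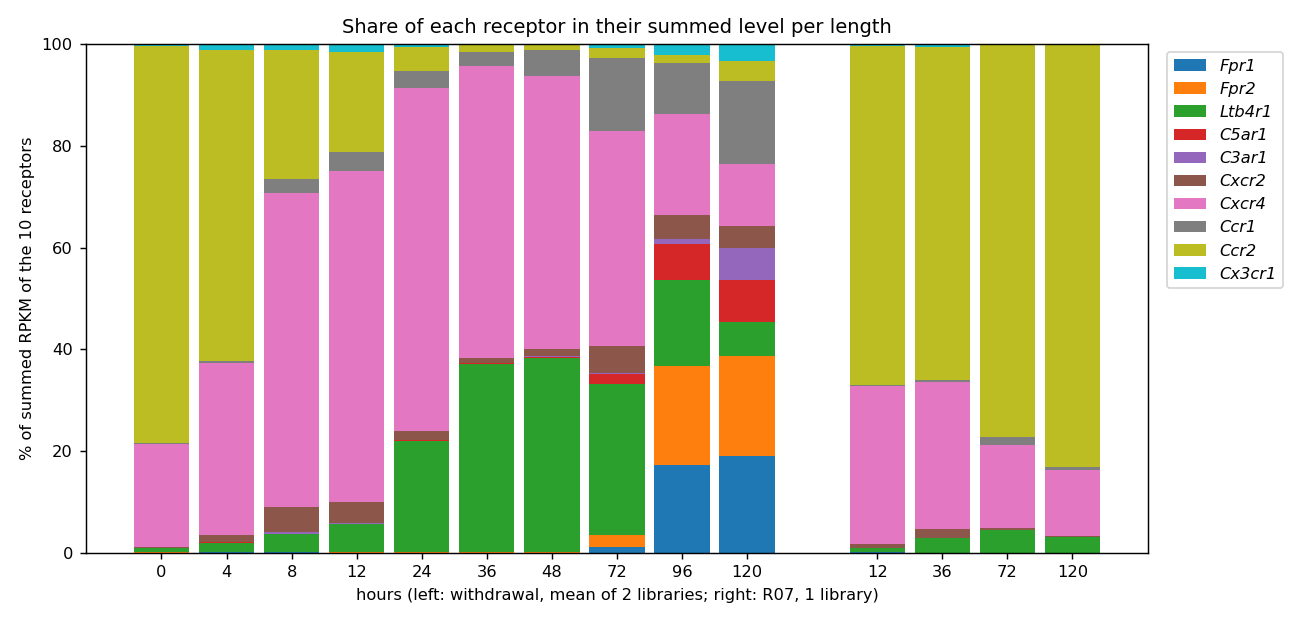
Share of each receptor in the RPKM summed over the 10 receptors (percent), for the mean of the 2 withdrawal libraries of each time on the left and the single R07 libraries on the right. Ccr2 holds the largest share at 0 h and in all 4 R07 libraries, and no receptor holds over 20% at 120 h without estradiol.

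With R07, the receptors that rose on withdrawal stayed far below the withdrawal libraries at the later times, and Ccr2 stayed above. Over the 4 shared times, 5 of 10 receptors were called (17.0% of 14510 genes), 4 lower (6.52% of genes) and 1 higher (10.5%). The median difference was -3.47 for the receptors and 0.05 for all genes on the log2 scale. Each R07 time has 1 library, so no single time was tested, and differences between times enter the spread of this comparison.

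Fpr1 was at 0.169 CPM with R07 at 12 h, on 9 counts, and at 0.0209, 0.0377 and 0.0237 CPM at 36, 72 and 120 h, on 1, 2 and 1 counts. The 12 h library lay above both withdrawal libraries of that time, and the other 3 lay below theirs. The difference of -6.32 ± 2.77 did not pass (adjusted p = 0.144), and without the 12 h R07 library it was -11.46 (adjusted p = 0.00163). Fpr2 was at 0.0564, 0.0209, 0.0377 and 0.0473 CPM at the 4 times, on 1 to 3 counts, within the withdrawal range at 12 h and below it later. Its difference of -9.73 ± 2.05 passed (adjusted p = 0.0142) but not without the 72 h R07 library (adjusted p = 0.0947). C3ar1 was at 0.0940, 0.0209, 0 and 0.0237 CPM, where the 0 allows up to 0.0566 CPM, and lay below both withdrawal libraries at every time. Its difference of -9.47 ± 1.97 passed (adjusted p = 0.0134), and again not without the 72 h R07 library (adjusted p = 0.0774). With counts this low the R07 levels show that the 3 receptors were scarce, and the fitted folds say little about how scarce.

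C5ar1 was at 0.0940, 0.292, 0.359 and 0.379 CPM with R07 at 12, 36, 72 and 120 h. It lay within the withdrawal range at 12 h and below it at the other 3 times, by far the most at 120 h, and the difference over all times did not pass (-4.33 ± 1.79, adjusted p = 0.124). Cxcr2 was at 3.61, 16.7, 5.62 and 1.70 CPM. The 36 h library lay above both withdrawal libraries of that time and the other 3 below, and the difference was -1.91 ± 1.29 (adjusted p = 0.324). Cx3cr1 had the same arrangement, with 2.82, 8.77, 4.25 and 0.615 CPM and a difference of -1.15 ± 1.31 (adjusted p = 0.559). Without the 36 h R07 library, C5ar1 (-7.01, adjusted p = 0.0285) and Cxcr2 (-3.70, adjusted p = 0.0378) passed.

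Cxcr4 was at 88.0, 155, 106 and 69.9 CPM with R07. It lay below both withdrawal libraries at every time, yet the difference of -1.16 ± 0.38 did not pass with edgeR (adjusted p = 0.0634); it passed with DESeq2 (adjusted p = 0.0119) and without the 12 h or the 36 h R07 library (adjusted p = 0.0222 and 0.0428). Ccr1 was at 0.658, 3.34, 16.2 and 4.52 CPM, below both withdrawal libraries at every time, and differed by -3.90 ± 0.76 (adjusted p = 0.0102). Ltb4r1 was at 1.64, 11.8, 22.3 and 12.7 CPM, also below at every time, and its difference of -3.04 ± 0.29 (adjusted p = 0.00069) had the smallest error of the 10. Among the R07 libraries, Ccr1, Ltb4r1 and Ccr2 were highest at 72 h.

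Ccr2 was at 705, 1312, 1889.8 and 1681 CPM with R07 at 12, 36, 72 and 120 h. All 4 libraries lay above both withdrawal libraries of their time, and that at 72 h was 242% of the highest withdrawal mean, the one at 0 h. Ccr2 differed by 4.18 ± 0.67 (adjusted p = 0.00467), the one higher call among the receptors. It held 66.7, 65.4, 77.0 and 83.2% of the summed RPKM in the 4 R07 libraries, with sums of 156, 297, 363 and 299 RPKM. In this respect the R07 libraries resembled the libraries at 0 h more than those of their own times.

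**Figure D4:**
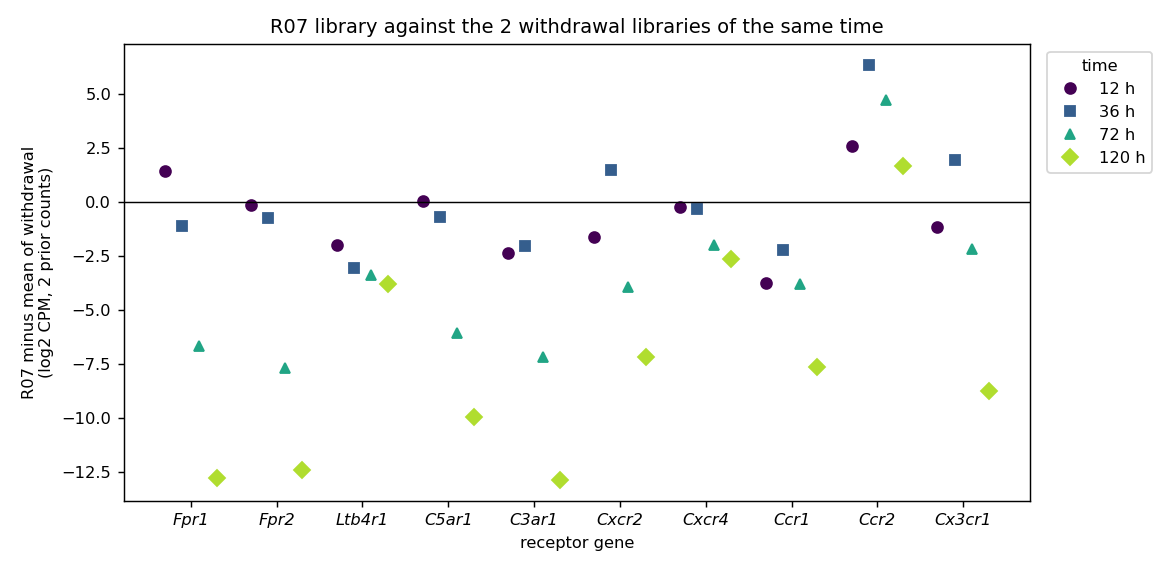
Difference between the R07 library and the mean of the 2 withdrawal libraries of the same time, in log2 CPM with 2 prior counts, for each receptor (horizontal axis) and time (symbols). Ccr2 lies above 0 at all 4 times, and the other 9 receptors lie below 0 at 72 and 120 h; values of the genes with fewer than 4 counts with R07 depend on the prior count.

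The R07 difference changed with time for most receptors. In a fit with a slope over hours, 9 of 10 were called (48.7% of all genes), all 9 more negative with time (23.1% of genes) and 0 more positive (25.6%). Per 24 h, the difference fell by 3.71 ± 0.28 for Fpr1, 3.01 ± 0.36 for Fpr2, 2.60 ± 0.21 for C3ar1 and 2.46 ± 0.23 for C5ar1 on the log2 scale. It fell by 2.12 ± 0.56 for Cx3cr1, 1.74 ± 0.44 for Cxcr2, 1.05 ± 0.27 for Ccr1, 0.59 ± 0.07 for Cxcr4 and 0.35 ± 0.08 for Ltb4r1. The 4 steepest slopes belonged to the 4 receptors with the fewest counts at 0 h. Without the 120 h R07 library, the slopes of Cxcr2 (-1.30, adjusted p = 0.281), Ccr1 (-0.21, adjusted p = 0.620) and Cx3cr1 (-0.71, adjusted p = 0.453) did not pass. For Ccr2 the slope was -0.60 ± 0.42 (adjusted p = 0.263), and without the 12 h R07 library it was -1.35 (adjusted p = 2.66e-06).

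Compared with the 2 libraries at 0 h, the 4 R07 libraries gave no receptor call among the 7 tested with edgeR, nor a call among all 13703 genes (0.0%), with 2868 genes and 5 receptors at an unadjusted p under 0.05. DESeq2 called 1241 genes, among them Cxcr2 and Ltb4r1. The estimates were 2.89 ± 0.91 for Ltb4r1 (adjusted p = 0.159), 2.69 ± 1.13 for Ccr1 (0.232), 2.46 ± 0.90 for Cxcr2 (0.190) and 0.80 ± 0.37 for Ccr2 (0.265). Without the 12 h R07 library, edgeR called Ltb4r1 (3.25, adjusted p = 0.00796), Ccr2 (1.02, 0.0220), Ccr1 (3.06, 0.0378) and C5ar1 (2.04, 0.0378), each higher with R07 than at 0 h. The share of all genes called in that smaller fit is not given here, so these calls cannot be set against it. Fpr1, Fpr2 and C3ar1 had too few counts in these 6 libraries to be tested.

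Other receptors of the same families were mostly scarce. Of 35 with a row, 16 had enough counts to be tested over the course, and 12 of these were higher at 120 h, 0 lower and 4 not called; the median change was 4.96, or 4.15 with the 3 genes lacking a count in a group at their bound, against -0.06 for all genes. Of all genes, 39.6% were higher and 40.3% lower at 120 h. At 24 h, 2 of the 16 were higher and 3 lower, where 27.9% of all genes were called in either direction. C5ar2, a second C5a receptor 2588 bp from C5ar1, went from 0.0506 and 0.184 CPM to 33.6 and 29.2 CPM at 120 h (7.93 ± 0.30, adjusted p = 1.75e-15). Hcar2, a receptor of hydroxycarboxylic acids, went from 0.152 and 0.204 to 393 and 296 CPM (10.85 ± 0.38, adjusted p = 5.86e-16). Cxcr3, the receptor of interferon-induced CXC chemokines, had no count at 0 h and 11.2 and 8.56 CPM at 120 h, which is at least 292-fold higher, against 3 counts over both libraries at 0 h (adjusted p = 2.17e-11). With R07, 1 of 15 tested differed upward and 3 downward from withdrawal, C5ar2 among the latter (-3.08 ± 0.81, adjusted p = 0.0318). Of all genes, 10.5% were higher and 6.52% lower with R07.

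Genes next to the receptors did not share their levels as a rule. Ccr1l1, 8550 bp from Ccr1, had at most 21 counts, and Ltb4r2, 823 bp from Ltb4r1, at most 6. Cxcr1, 30538 bp from Cxcr2, had at most 1 count. Neighbouring receptor genes thus differed widely in level, with Fpr1 and Fpr2 as the pair closest in course.

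Of 32 genes for ligands of the receptors and the enzymes that make them, 24 had enough counts to be tested. By 120 h, 20 of the 24 were higher, 1 lower and 3 not called (median 7.83, or 6.51 with 4 genes at their bound). Among those not tested, Cxcl12, the ligand of Cxcr4, and Cxcl1 and Cxcl5, ligands of Cxcr2, had no count in any library. Cx3cl1, the ligand of Cx3cr1, had at most 2 counts. Of all genes, 39.6% were higher and 40.3% lower at 120 h, with a median of -0.06. At 24 h, 7 of the 24 were higher and 2 lower, where 27.9% of all genes were called in either direction. Ccl5, a ligand of Ccr1, was at 0 and 0.0204 at 0 h and 98.4 and 106 CPM at 120 h (adjusted p = 1.49e-13, with 1 count at 0 h and so no fold given), and Camp, whose peptide is a ligand of Fpr2, from 0.0253 and 0.0613 to 184 and 188 CPM (11.90 ± 0.39, adjusted p = 7.85e-16). C3, the source of C3a, went from 1.16 and 1.39 to 2710.1 and 2263 CPM (10.89 ± 0.30, adjusted p = 2.49e-17). Mif, a cytokine that can bind Cxcr2 and Cxcr4, was the one that fell, from 211.1 and 210.6 to 28.0 and 36.6 CPM (-2.73 ± 0.20, adjusted p = 7.21e-11). With R07, 1 of 23 was higher than on withdrawal (10.5% of all genes were) and 2 were lower (6.52%).

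Downstream signalling genes had smaller changes in the median. Of 36 tested, 29 were higher at 120 h, 4 lower and 3 not called, with a median of 1.15. Of all genes, 39.6% were higher and 40.3% lower at 120 h, with a median of -0.06. At 24 h, 8 of the 36 were higher and 9 lower, where 27.9% of all genes were called in either direction. Pik3r5, a regulatory subunit of PI3K gamma, went from 0.0506 and 0.102 to 99.5 and 107 CPM (10.28 ± 0.36, adjusted p = 6.76e-16), and the Src family kinase Fgr (7.04 ± 0.20, adjusted p = 3.45e-17) rose as well. The G protein subunits Gnb4 (-2.66 ± 0.12, adjusted p = 4.34e-14) and Gna15 (-1.35 ± 0.12, adjusted p = 3.14e-09) and the Rac exchange factor Tiam1 (-0.80 ± 0.10, adjusted p = 5.34e-07) fell. With R07, Gnb4 was higher than on withdrawal (3.20 ± 0.67, adjusted p = 0.0141), the one such gene among 36, and 7 were lower. Of all genes, 10.5% were higher and 6.52% lower with R07.

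Genes that switch the receptors off or recycle them also rose, 17 of 19 tested at 120 h, with 1 lower and 1 not called and a median of 1.56. Of all genes, 39.6% were higher and 40.3% lower at 120 h, with a median of -0.06. At 24 h, 7 of the 19 were higher and 2 lower, where 27.9% of all genes were called in either direction. Grk5, a receptor kinase, went from 0.607 and 0.674 to 138 and 126 CPM (7.65 ± 0.22, adjusted p = 3.81e-17), and the G protein regulators Rgs10 (7.18 ± 0.22, adjusted p = 1.10e-16) and Rgs2 (4.20 ± 0.12, adjusted p = 2.44e-17) did so too. Grk3, another receptor kinase, fell from 140.1 and 125 to 86.2 and 68.9 CPM (-0.79 ± 0.13, adjusted p = 1.24e-05). With R07, 2 of 19 were lower than on withdrawal (6.52% of all genes were) and 0 higher (10.5%), and 17 were not called.

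Across the 20 withdrawal libraries, the receptors other than Ccr2 correlated with each other at Pearson's r between 0.609 and 0.988 on the log2 scale, while Ccr2 correlated with them at -0.466 to 0.334. The libraries are points of 1 time course and share its order, so these values describe it and carry no test. The genes whose course was most like that of a receptor, among 8433 with enough counts, were Ltf (r = 0.996) and Cap1 (0.993) for Fpr2, Ndel1 and Ltf (both 0.990) for Fpr1, and Klf6 (0.993) and Slc35a5 (0.992) for C5ar1. They were Hgsnat (0.990) and Ifngr2 (0.989) for C3ar1, Sema4a (0.985) and Mtmr6 (0.983) for Cxcr2, Naip5 (0.996) and Slc31a2 (0.995) for Cxcr4, and Tifa and Fcgr3 (both 0.990) for Ccr1. For Cx3cr1 they were Tprgl (0.989) and Cd52 (0.988), and for Ltb4r1 Cited2 and Naip2 (both 0.992). Ccr2 had no match as close, with Ccl9 (0.942) and Adam10 (0.933) first.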

How the data were processed

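RNA was measured in 24 poly(A)-selected, stranded libraries read as 101-base pairs, per the labels' protocols. As deposited, the values are unnormalized read counts per gene, all whole numbers; the submitters' processing notes name STAR 2.4.2a, Picard and mm10, and the counting program, strand setting and annotation release are not given in the sources used here. The 4 lines that name no gene (14.3 to 17.3% of reads) entered neither library sizes nor tests. Column names give the withdrawal time and a letter, which the labels do not tie to replicate numbers; libraries are listed by letter, A first.

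Counts were scaled by TMM, filtered with filterByExpr and tested with edgeR 4.0.16 quasi-likelihood tests (R 4.3.3, limma 3.58.1), adjusted over all genes. The 20 withdrawal libraries were fitted with time as a factor. R07 was compared with withdrawal over 12 libraries with terms for time and arm, then with a slope per 24 h, and with the 2 libraries at 0 h. Correlations used log2 CPM with a prior count of 2. Values after ± are standard errors from the edgeR fits and include the spread between libraries. Floors cover counting error only, and a bound uses 3 counts over a group. Symbols, positions and exon lengths came from GENCODE M21, which named 44671 of 45318 genes (99.9% of counts), and promoter windows from RefSeq, where all 10 receptors matched by symbol. List genes named in the text were, in each list and direction, up to 3 called genes with the largest changes at 120 h. Only genes with a mean of at least 1 CPM over the withdrawal libraries were eligible. Some genes that these rules name are not reported here. The genes named as most like a receptor were the 2 with the highest r.

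Receptors and lists were chosen with earlier results of these data known. Alternatives were RLE scaling, no filter, DESeq2 1.42.0, fits on more or fewer libraries, ranks of time, a block on the letter and leaving out each library.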

Additional observations from a re-analysis of the deposited data

Results flagged for a closer look

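The difference between R07 and withdrawal changed with time for 9 of the 10 receptors, by a test of the slope itself (edgeR quasi-likelihood test, adjusted over 14510 genes). On the log2 scale per 24 h the slope was -3.71 for Fpr1, -3.01 for Fpr2, -2.60 for C3ar1 and -2.46 for C5ar1. It was -2.12 for Cx3cr1, -1.74 for Cxcr2, -1.05 for Ccr1, -0.587 for Cxcr4 and -0.352 for Ltb4r1. Each R07 time is a single library, and 48.7% of all genes passed the same test.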

How the results depend on the processing

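Of 1274 member fold changes recomputed under an alternative, 1213 kept their direction and side of the threshold, 26 no longer passed, 35 newly passed and 0 reversed. The receptor counts that follow stand without the share of all genes called under the same alternative. They cannot be read against the shares of the main fits. Against the 5 receptors called for R07 against withdrawal, fitting all 24 libraries together called 10, and leaving out 1 library gave 3 (without R07 at 72 h) to 8 (without R07 at 36 h). For R07 against 0 h, where edgeR called 0, DESeq2 called 2 and the later 3 R07 libraries alone called 4, and leaving out 1 library gave 0 to 4. At 4 h DESeq2 called 4 receptors in place of 2. At 24 h leaving out 1 library gave 5 (without the second library at 0 h) to 7 calls in place of 8. The counts of the slope fit ran from 6 (without R07 at 120 h) to 10 (without R07 at 12 h), and ranks of time in place of hours lost Ccr1 (adjusted p = 0.0569) and Cx3cr1 (0.0667). With no filter, Fpr2 passed at 48 h (1.81, adjusted p = 0.00684). With the column letter as a replicate block, Cx3cr1 at 4 h (0.91, adjusted p = 0.0271) and Ltb4r1 from 48 to 120 h (0.27, adjusted p = 0.0460) newly passed, and no other receptor call changed; the letters of 2 times correlated at -0.654 to 0.683 over 45 pairs of times, over 0.1 in 25, so they were not taken as pairs. Of 40 tries with a prior count of 0.5 or rank correlation, 19 kept the gene named as most like a receptor among the first 2. The cause of these differences was not tested, except that a left-out library leaves its time with 1, assumed to vary like the others. Depth limits every fold of Fpr1, Fpr2, C5ar1 and C3ar1 against 0 h, where their counts were few. It also limits the folds of Fpr1, Fpr2 and C3ar1 with R07.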
